A study of Homo sapiens with 2 samples.

Results

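The genes described here encode factors of translation initiation and elongation that carried at least 1 peak in a list of RNA immunoprecipitation sequencing (RIP-seq) peaks from ARP1 cells, an established line of human multiple myeloma. They are the initiation factor genes EIF1AX, EIF3A, EIF3C, EIF3CL and EIF4B and the elongation factor gene EEF1G. Members were all distinct peaks listed under these 6 symbols, 13 of the 236 distinct peaks, and the 6 genes are among 238 gene identifiers with a peak. The groups were an IP library (n = 1), of RNA that an SFRS8 antibody recovered from ARP1 lysate, and an input library (n = 1) of ARP1 RNA with no antibody. Both share the cell line, and the labels give no treatment, genotype change or time. SFRS8 is the splicing regulator also known as SFSWAP, and the comparison asks which RNAs it associates with in myeloma cells. The protocol also mentions an antibody against the modified base m6A, and it does not say if these libraries went through that step. An IP with a non-specific antibody was not analysed here.

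Initiation begins when a small ribosomal subunit loaded with factors binds the capped mRNA and scans to a start codon. EIF1AX encodes eIF1A, which sits on the small subunit and helps to recognise the start codon. EIF3A and EIF3C encode core subunits of eIF3, the scaffold that joins the small subunit to mRNA and to the other factors, and EIF3CL is a near-identical copy of EIF3C. EIF4B encodes an RNA-binding factor that stimulates the helicase eIF4A, which unwinds the mRNA ahead of scanning. EEF1G encodes the gamma subunit of the exchange complex that returns the tRNA carrier eEF1A to its active form during elongation. Antibody-secreting cells such as plasma cells depend on high rates of translation.

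The strength of a peak is given as IP reads divided by control reads, called the ratio. Library totals are not in the list, so ratios have meaning only against other peaks, and a ratio under 1 does not show depletion. The header does not say which library each count comes from. The plain count was taken for IP and the CTL count for input, and with the opposite reading every order by ratio given here would turn. Brackets after a ratio give exact Clopper-Pearson 95% intervals, which cover counting error only, since reads copied by PCR are not independent molecules. Where 1 ratio is divided by another, brackets give exact conditional 95% intervals, again of counting error only. The bracket after the median of all peaks is a 95% interval from the ranked peaks, which takes them as independent. With 1 library per group there is no replicate check, and no test was made. The members were chosen because they have peaks and with results of these data in view, so all values below are a description. The median ratio of all 236 peaks was 0.190 (0.142 to 0.228), and no peak in the list had under 11 IP reads. Of 10 plasma cell marker genes, ITGB7, JCHAIN, MZB1 and XBP1 had a peak, as had 0 of 5 T cell, 0 of 5 myeloid, 0 of 4 erythroid and 0 of 4 stromal marker genes. These lists were chosen with earlier results of these data known, so nothing is read from the counts. Ratios of the plasma cell marker peaks ran from 0.00353 in JCHAIN to 1.20 in 1 of the ITGB7 peaks. Genes without a peak, SDC1 and TNFRSF17 among the plasma cell markers, have no level in a list of peaks.

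The sequences that fix the places discussed below are those of microRNA hairpins inside the genes, from RefSeq on GRCh38.p14, the build of the peak list. EIF3C and EIF3CL each hold a copy of the miR-6862 hairpin, and the copies are shown because they place the peaks of both genes on a common axis. All 70 bases of the copies are identical, and the capitals mark the seeds (bases 2 to 8) of the 5p and 3p mature arms:
MIR6862-2 (in EIF3C, chr16:28724252-28724321, plus strand): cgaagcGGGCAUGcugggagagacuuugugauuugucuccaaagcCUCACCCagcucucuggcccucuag
MIR6862-1 (in EIF3CL, chr16:28390982-28391051, minus strand): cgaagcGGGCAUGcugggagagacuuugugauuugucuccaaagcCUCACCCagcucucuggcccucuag

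Another hairpin, of 61 bases, is shown because it lies wholly inside the peak of EEF1G with the most IP reads:
MIR6747 (in EEF1G, chr11:62567011-62567071, minus strand): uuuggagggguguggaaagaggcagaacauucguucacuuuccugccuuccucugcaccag

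Together the 13 peaks covered 34.2 kb and held 411 IP and 3608 control reads, which is 3.41% of the IP reads and 4.13% of the control reads in all peaks. Their ratios ran from 0.0337 in EEF1G to 5 in EIF1AX, with a median of 0.174. This lies inside the interval of the median of all peaks. A ratio above the median of all peaks was found for 6 of the 13 peaks, against 50% of all peaks by construction. IP reads outnumbered control reads in 1 of the 13 peaks, that of EIF1AX, against 16.1% of all peaks. The interval lay wholly below 1 for 9 of 13 peaks, against 76.3% of all peaks. It lay wholly above the median of all peaks for 5 of 13 (36.4% of all peaks), and wholly below that median for 3 of 13 (40.3% of all peaks). Nothing is read from these counts, since the peaks were chosen from the same contrast.

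**Figure D1:**
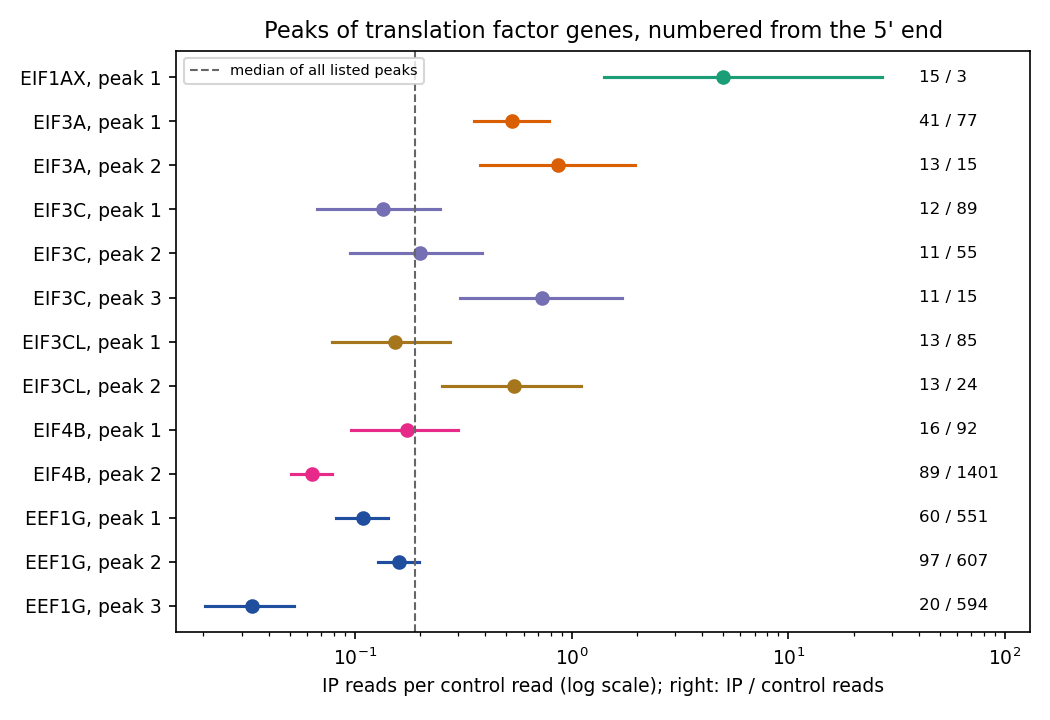
IP reads per control read (log axis) of the 13 peaks of the 6 genes, with exact 95% counting intervals as lines, the read counts at the right and the median of all 236 peaks as a dashed line. EIF1AX lies highest at 5 and the peak of EEF1G at its 3′ end lies lowest at 0.0337.

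EIF1AX (ENSG00000173674) had a single peak, on the minus strand of chromosome X from 20135801 to 20136400. It held 15 IP reads and 3 control reads, giving a ratio of 5 (1.41 to 26.9). It ranked 15 of 236 with the floor of 3 control reads set for the 12 peaks with 0, and 19 if all of those are placed above it. The density was 25 IP reads per kb, close to that of the EIF3A peaks, against 5 control reads per kb, rank 215 of 236. The high ratio thus came with few control reads and not with many IP reads, which ranked 156 of 236. With the minimum of 11 IP reads, no listed peak with 3 control reads could have a ratio under 3.67. Among the other 10 peaks with 0.5 to 2 times as many control reads, the median ratio was 5.17 and 5 were higher, so EIF1AX lay in the middle of such peaks.

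The centre of the EIF1AX peak lay 5.74 kb from the 5′ end of the 17.3 kb gene and 11.6 kb from its 3′ end. Of the 600 bases, 335 (55.8%) overlapped SCARNA9L, a gene of 348 bases for a small Cajal body RNA, from 20136066 to 20136413. RNAs of this class guide the chemical modification of spliceosomal RNAs. The strand of SCARNA9L is not in the table used, and reads of the 2 genes cannot be told apart in the list. In the authors' deposited table this peak had a score of 25.9 and an adjusted p of 5.56e-23. Its control score in the authors' deposited table was 8.32, the only control score above 0 among the 13 peaks and among 8 such scores in the list.

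EIF3A (ENSG00000107581), on the minus strand of chromosome 10, had 2 peaks. The peak nearer to the 5′ end, from 119049801 to 119051400, held 41 IP and 77 control reads, giving a ratio of 0.532 (0.355 to 0.788). The peak nearer to the 3′ end, from 119042201 to 119042800, held 13 IP and 15 control reads, giving a ratio of 0.867 (0.380 to 1.95). The second interval spans the first, and the ratio of the first peak over the second was 0.614 (0.246 to 1.56), so they did not differ beyond counting error. Both intervals lay wholly above the median of all peaks. In IP reads per kb the peaks were also close, at 25.6 and 21.7, with 48.1 and 25 control reads per kb.

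Against 64 other peaks with similar control reads (0.5 to 2 times as many), where the median ratio was 0.229, only 9 were above the 5′ peak of EIF3A. For the 3′ peak, 9 of 22 such peaks were higher and their median was 0.840. Both peaks lay inside the gene, centred 64.1% and 81.3% of the way along its 47.2 kb. EIF3A also hosts SNORA19, a small nucleolar RNA that lies from 119060011 to 119060138. Neither peak reached it, with gaps of 8.61 and 17.2 kb.

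EIF3C (ENSG00000184110), on the plus strand of chromosome 16, had 3 peaks with nearly the same number of IP reads and different numbers of control reads. From 5′ to 3′, the first, from 28714141 to 28718550, held 12 IP and 89 control reads, giving a ratio of 0.135 (0.0671 to 0.247). The second, from 28722961 to 28727370, held 11 and 55 reads, a ratio of 0.2 (0.0944 to 0.386). The third, from 28735561 to 28739340, held 11 and 15 reads, a ratio of 0.733 (0.305 to 1.71).

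The IP reads of EIF3C therefore stood at or next to 11, the fewest of any listed peak, which 28 of 236 peaks had. The ratios of the second and of the third peak equal the lowest that a listed peak with so many control reads could have, and the rise towards the 3′ end followed the fall in control reads. The ratio of the first over the third peak was 0.184 (0.0618 to 0.559) and that of the first over the second was 0.674 (0.253 to 1.82). Among peaks with similar control reads, 54 of 70, 47 of 59 and 15 of 22 were above the first, the second and the third peak of EIF3C. The third peak had 170 of its 3780 bases in the gene, and its centre lay 1.72 kb past the 3′ end. Without it, the summed ratio of EIF3C was 0.160 in place of 0.214 (0.143 to 0.311). In the authors' deposited table the adjusted p of the second and of the third peak, 1.03e-05 and 0.00103, were the highest of the 13.

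EIF3CL (ENSG00000205609), on the minus strand of chromosome 16, had 2 peaks with 13 IP reads each. The peak nearer to the 5′ end, from 28399781 to 28401500, held 85 control reads, giving a ratio of 0.153 (0.0782 to 0.276). The peak nearer to the 3′ end, from 28392041 to 28392255, held 24 control reads, giving a ratio of 0.542 (0.253 to 1.11). The ratio of the first over the second was 0.282 (0.106 to 0.765). As in EIF3C, control reads fell from the first to the second peak, here with the same number of IP reads. The EIF3CL peaks differ in width, 1720 and 215 bases, and per kilobase the control reads rose from 49.4 to 112. IP reads per kb rose from 7.56 to 60.5. In EIF3C, where both of these peaks are 4410 bases wide, control reads per kb fell from 20.2 to 12.5. In the authors' deposited table the narrow 3′ peak of EIF3CL had a score of 119, against 35.8 for the 5′ peak.

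The peaks of EIF3C and EIF3CL lay at corresponding places of the copies. With distances counted from the first base of the miR-6862 hairpin, the pseudogenes CDC37P1 and CDC37P2 inside the genes began 23053 and 23064 bases before it, and the RefSeq genes ended 11478 and 11470 bases after it. These inner landmarks and gene ends of both copies agreed within 11 bases, whereas the RefSeq gene starts differed by 327 bases on this axis. On this axis the first peak of EIF3CL, from -10449 to -8730, shared 1382 bases with the first peak of EIF3C, from -10111 to -5702, which is 80.3% of the EIF3CL peak and 31.3% of the EIF3C peak. The second peak of EIF3CL, from -1204 to -990, lay wholly inside the second peak of EIF3C, from -1291 to 3118, and took up 4.88% of it. The third peak of EIF3C, from 11309 to 15088, had no listed counterpart in EIF3CL.

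In the corresponding peaks the numbers of reads were close at the first place, and at both places the densities were higher in EIF3CL, whose peaks are narrower. On chromosome 16, listed peaks of the plus strand, that of EIF3C, were at least 3780 bases wide. Those of the minus strand, that of EIF3CL, were as narrow as 215 bases, so widths and densities of the copies are not on equal terms. At the first place, EIF3CL had 13 IP and 85 control reads and EIF3C had 12 and 89, a ratio of ratios of 1.13 (0.449 to 2.89). At the second, EIF3CL had 13 and 24 reads in 215 bases and EIF3C had 11 and 55 in 4410 bases, a ratio of ratios of 2.71 (0.956 to 7.68), so neither pair differed beyond counting error. Per kilobase, the first place had 7.56 IP and 49.4 control reads in EIF3CL and 2.72 and 20.2 in EIF3C, and the second had 60.5 IP and 112 control reads in EIF3CL and 2.49 and 12.5 in EIF3C. The list pairs both genes with the same KEGG orthology entry, K03252. The copies share sequence, so the split of reads between them is uncertain and the 5 peaks cannot be taken as independent. Summed over both genes the ratio was 0.224 (0.166 to 0.297), an interval that takes their reads as independent and so may be too narrow.

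**Figure D2:**
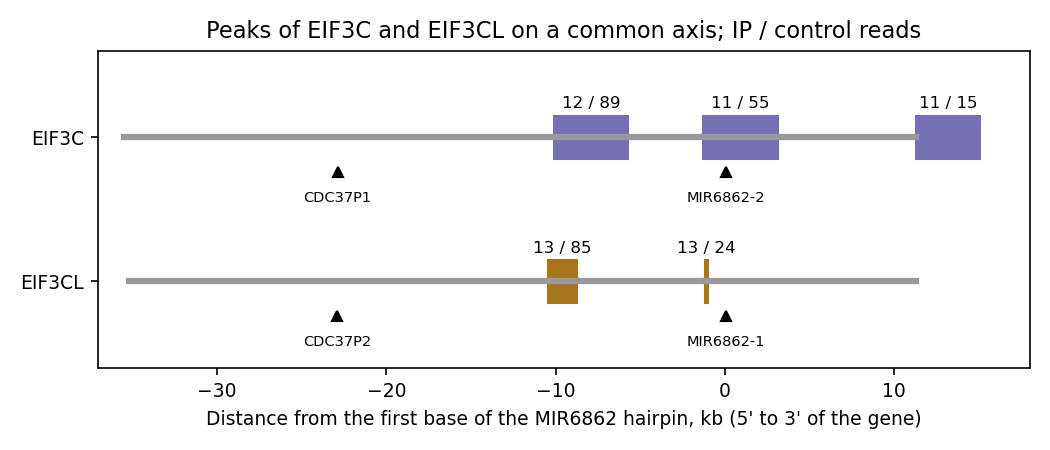
Peaks of EIF3C and EIF3CL (boxes, with IP and control reads above them) by distance in kb from the first base of the miR-6862 hairpin, read 5′ to 3′, with grey lines for the RefSeq gene spans and triangles for the landmarks CDC37P1, CDC37P2 and the hairpins. The first 2 peaks of EIF3C overlap the 2 peaks of EIF3CL, and the third peak of EIF3C lies mostly past the gene.

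EIF4B (ENSG00000063046), on the plus strand of chromosome 12, had the peak with the most control reads among the members. This peak, from 53033921 to 53045580, held 89 IP and 1401 control reads, giving a ratio of 0.0635 (0.0507 to 0.0787). It ranked 25 of 236 by IP reads and 13 by control reads, but 185 by ratio. The peak nearer to the 5′ end, from 53027296 to 53028620, held 16 IP and 92 control reads, giving a ratio of 0.174 (0.0954 to 0.298). Its ratio was 2.74 times (1.44 to 4.93) that of the 3′ peak, a difference larger than counting error.

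The 3′ peak of EIF4B was 11660 bases wide, had 3371 bases past the 3′ end of the gene and covered 2392 bases (20.5% of the peak) of TNS2-AS1, a long non-coding RNA gene on the opposite strand by its RefSeq promoter entry. Per kilobase, the 5′ peak had 12.1 IP and 69.4 control reads and the 3′ peak 7.63 and 120. IP density was thus lower and control density higher at the 3′ end. Of 34 other peaks with control reads similar to those of the 3′ peak, 12 had a higher ratio and the median was 0.0520.

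EEF1G (ENSG00000254772), on the minus strand of chromosome 11, had 3 peaks with about the same number of control reads and unequal IP reads, the reverse of EIF3C. Near the 5′ end, from 62570921 to 62572765, 60 IP and 551 control reads were counted, a ratio of 0.109 (0.0820 to 0.142). In the middle, from 62566616 to 62567640, the peak over MIR6747 held 97 and 607 reads, a ratio of 0.160 (0.128 to 0.198). At the 3′ end, from 62559441 to 62560465, 20 and 594 reads were counted, a ratio of 0.0337 (0.0204 to 0.0525).

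The ratio of the middle peak of EEF1G was 4.75 times (2.86 to 8.21) and that of the 5′ peak 3.23 times (1.89 to 5.74) that of the 3′ peak, and the interval of the 3′ peak met neither of the others. The 5′ peak over the middle peak gave 0.681 (0.475 to 0.971). The middle and 3′ peaks have the same width of 1025 bases and close control densities, 592 and 580 reads per kb, so their IP densities can be set side by side, 94.6 against 19.5 reads per kb. The 5′ peak had 32.5 IP and 299 control reads per kb. Among peaks with similar control reads, 12 of 59 were above the middle peak, 23 of 65 above the 5′ peak and 48 of 60 above the 3′ peak.

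The EEF1G peaks were centred 15.5%, 48.0% and 97.6% of the way along the 14.5 kb gene, and the 3′ peak ran 160 bases past its end. The hairpin shown above takes up 61 of the 1025 bases of the middle peak. All 3 peaks were also listed with ENSG00000255508, a protein-coding gene without a symbol in the list whose span runs from 62559603 to 62591531 across EEF1G, so the reads cannot be assigned to EEF1G alone. In the authors' deposited table the middle peak had the highest score of the 13, 219, and an adjusted p of 0, which 62 of 236 peaks share.

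**Figure D3:**
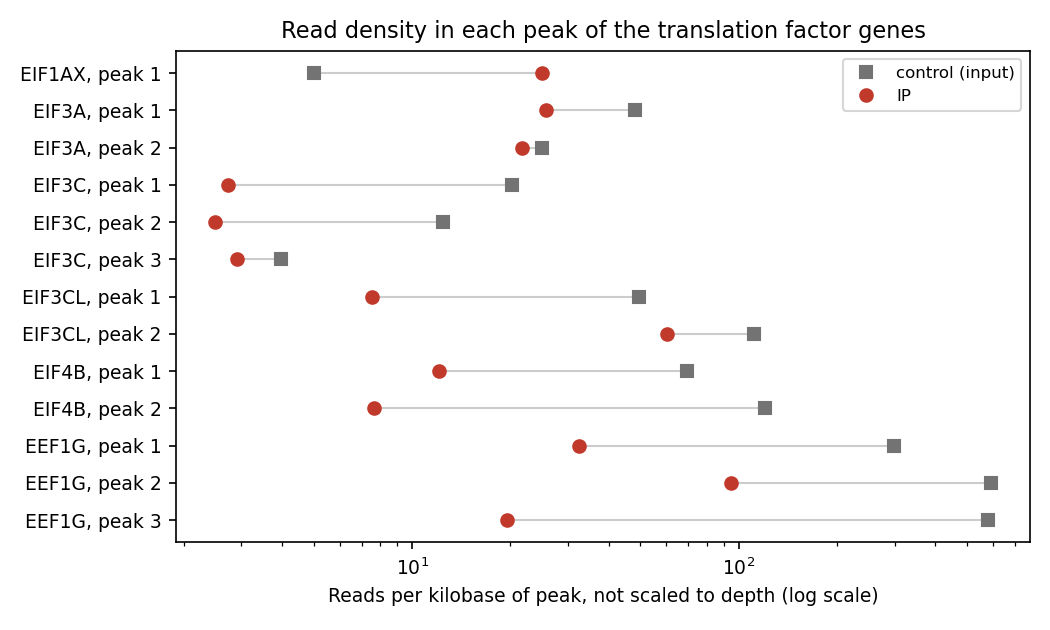
IP reads (circles) and control reads (squares) per kilobase of peak, on a log axis and not scaled to depth, for the 13 peaks numbered from the 5′ end of each gene. EEF1G has the highest control densities, 299 to 592 reads per kb, and only in EIF1AX does the IP density of 25 exceed the control density of 5.

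Along the genes, 3 of the 13 peak centres lay in the 5′-most part with each gene span of the list cut into 3 equal parts, while 5 lay in the middle and 5 in the 3′-most part, 1 of them past the 3′ end. The list gives EIF3CL a span of 24.3 kb and RefSeq gives 46.8 kb, with the 5′ end 22539 bases further upstream. With RefSeq spans the counts were 2, 5 and 6, as the EIF3CL peaks moved from 13.3% and 48.3% to 55.0% and 73.2% of the gene. The other 5 genes differed from RefSeq by at most 298 bases at either end. The lowest ratio lay at the 3′ end in EEF1G and EIF4B, whereas the highest ratio lay in the 3′-most peak of EIF3A, EIF3C and EIF3CL. In EIF3A that difference was within counting error. In EIF3C that peak lay mostly past the gene and held 11 IP reads, the fewest of any listed peak. That of EIF3CL was centred 12.6 kb from the 3′ end, and both peaks of the gene held 13 IP reads. Exon positions were not used here, so whether a peak lies in exons or introns is not given.

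**Figure D4:**
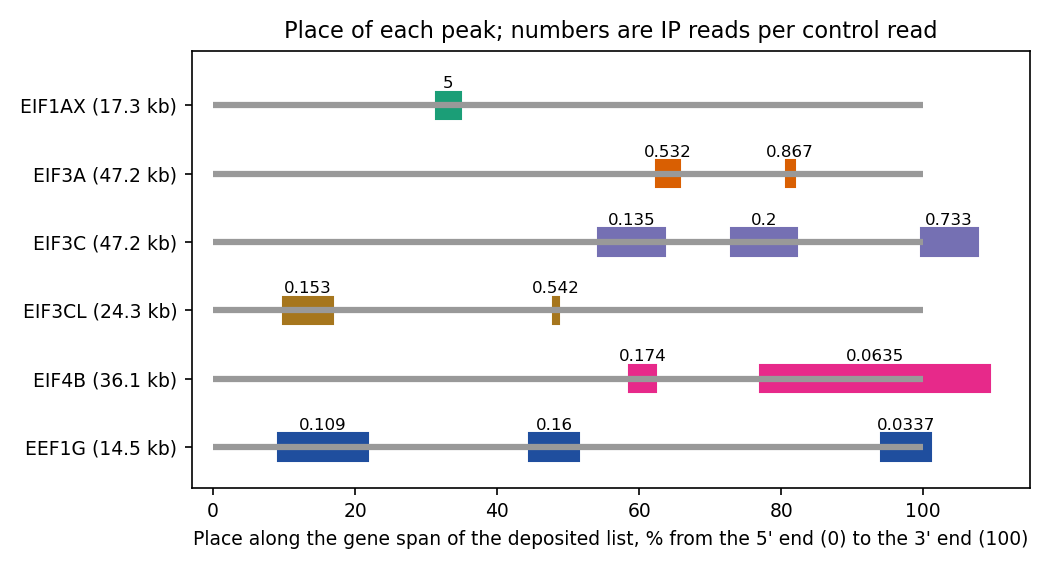
Place of each peak (boxes to scale) along the gene span of the deposited list, in percent from the 5′ end to the 3′ end, with IP reads per control read above each box. EEF1G has peaks from its 5′ part to its 3′ end, and the 3′ peaks of EIF3C and EIF4B run past the end of the gene.

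Set against EEF1G, the initiation factor peaks had a higher ratio in sum, but the size of the difference rested on EIF4B. The 10 initiation factor peaks held 234 IP and 1856 control reads, a summed ratio of 0.126 (0.110 to 0.145), and the 3 EEF1G peaks held 177 and 1752, a summed ratio of 0.101 (0.0861 to 0.118). The ratio of these ratios, in which depth cancels, was 1.25 (1.01 to 1.54). This interval counts the reads of EIF3C and EIF3CL as independent, which they may not be, so it may be too narrow. With both genes left out the value was 1.08. EIF4B held most of the initiation factor control reads, 1493 of 1856. Without it the ratio of ratios was 3.52 (2.70 to 4.56), without EIF3A it was 1.01, and without the 3′ peak of EEF1G, a choice made after its value was seen, it was 0.930, with the direction turned. By medians, which weight peaks equally, the initiation factors had 0.366 and EEF1G 0.109, a ratio of 3.36. No listed peak had under 11 IP reads, so the control reads of EIF1AX, EIF3A, EIF3C and EIF3CL allowed no peak ratio under 0.124. The direction by medians and without EIF4B was therefore fixed by that minimum, and nothing is read from it.

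By gene, the summed ratio fell from EIF1AX (5) through EIF3A (0.587, 0.411 to 0.830), EIF3CL (0.239, 0.149 to 0.369), EIF3C (0.214) and EEF1G (0.101) to EIF4B (0.0703, 0.0571 to 0.0858). EIF3CL and EIF3C did not differ beyond counting error, and the intervals of the other neighbours in this order did not overlap. Over EEF1G, the ratio of ratios was 5.81 (3.93 to 8.52) for EIF3A, 2.36 (1.44 to 3.76) for EIF3CL, 2.12 (1.37 to 3.19) for EIF3C and 0.696 (0.536 to 0.901) for EIF4B. Initiation factors thus lay on both sides of EEF1G. That EIF1AX, EIF3A, EIF3C and EIF3CL lay above EEF1G was fixed by the minimum of 11 IP reads at their control reads. Nothing is read from that direction.

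As the ratio fell by gene, control reads rose from EIF1AX (3) through EIF3A (92) and EIF3CL (109) to EIF3C (159). Only EEF1G and EIF4B were out of this order, since EIF4B had the lowest ratio but fewer summed control reads (1493) than EEF1G (1752). In single peaks, the 3′ peak of EIF4B had more control reads (1401) than any EEF1G peak (551 to 607). Over all 236 peaks the ratio fell as control reads rose (Spearman's rho -0.82, across peaks that share both libraries, the control count itself and the minimum of 11 IP reads). Control reads per kb, a rough measure of RNA level in the input, were 450 in the EEF1G peaks and 61.2 in the initiation factor peaks. The initiation factor peaks include 3610 bases past the end of EIF3C and 3371 past that of EIF4B, and these lower the density if little is transcribed there. Peak widths ran from 1025 to 1845 bases in EEF1G and from 215 to 11660 in the initiation factors. These densities are therefore not on equal terms. Set against peaks with similar control reads, 3 of the 10 initiation factor peaks (both of EIF3A and the 3′ peak of EIF4B) and 2 of the 3 EEF1G peaks lay above the median ratio of such peaks. The higher ratios of EIF1AX, EIF3C and EIF3CL therefore were not above the median of peaks with as few control reads. The part of RNA level in the difference between initiation factors and EEF1G was not tested.

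**Figure D5:**
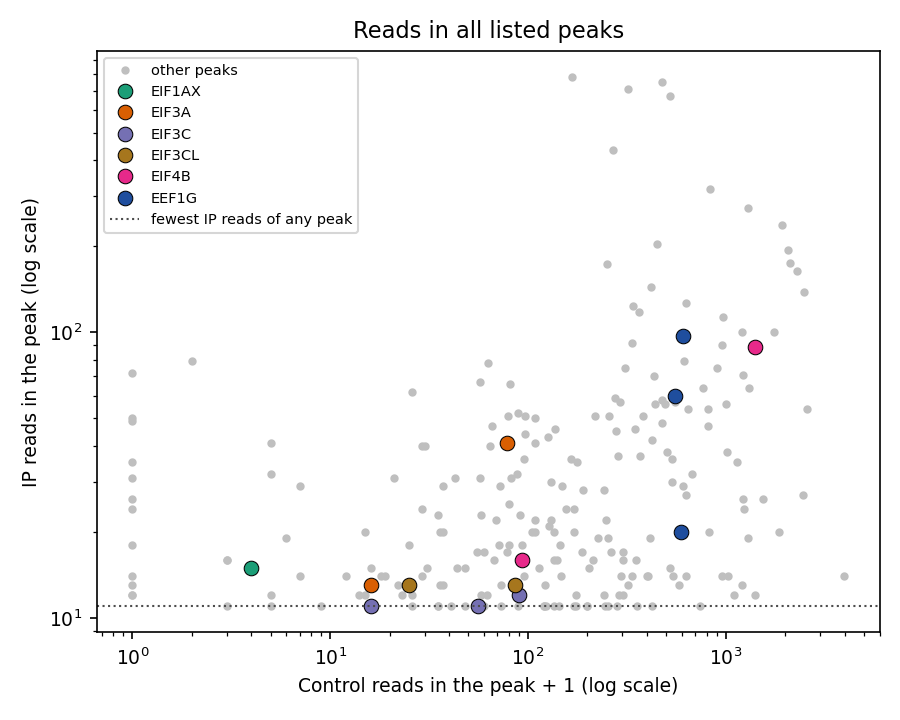
IP reads against control reads plus 1 (both log axes) in all 236 peaks, with the peaks of the 6 genes in colour and a dotted line at 11, the fewest IP reads of any listed peak. EIF3C lies on or next to that line, and EEF1G and the 3′ peak of EIF4B lie among the peaks with the most control reads.

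Ribosomal protein genes, which also encode parts of the translation machinery, were the most similar set in the list, with 23 peaks of 22 genes. Their ratios ran from 0.00856 to 0.380 with a median of 0.0561, and 2 of 23 lay above the median of all peaks. Their control reads ran from 241 to 2574 per peak with a median of 970, and the density was 261 per kb. The 3 EEF1G peaks and the 3′ peak of EIF4B lay within both ranges. The 8 peaks of EIF1AX, EIF3A, EIF3C and EIF3CL had 3 to 89 control reads, and the 5′ peak of EIF4B had 92. All of these were below every ribosomal protein peak, so ratios at equal control reads could not be set side by side for them.

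A list of 62 genes held initiation, elongation and termination factors of cytosolic translation and some proteins that regulate or accompany them. The members were the 6 with a peak. Of 20052 RefSeq protein-coding genes, 0.898% had their symbol in the peak list. The members were chosen for having a peak, so nothing is read from the difference. The 6 were 5 of 47 genes listed under initiation, 1 of 12 under elongation and 0 of 3 under termination. By position alone, without regard to strand or listed name, the number of genes overlapped by a peak was the same. Among those without a peak were EEF1A1 and EEF2, the main elongation factors, EIF4A1, the helicase that EIF4B stimulates, EIF4E and EIF4G1, the cap-binding and scaffold subunits, and PABPC1, the poly(A)-binding protein. A list of peaks gives no level for them, so their absence does not show that their RNA was not recovered.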

How the data were processed

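RIP-seq of ARP1 cells gave 1 IP and 1 input library. The deposited list has 279 rows, or 236 distinct peaks. Its counts are whole reads per peak without normalization, as deposited. Another 2 columns of per-library values were not used, and reads per kilobase were computed from counts and widths. The score, p-value, adjusted p-value and empirical false discovery rate are the authors' deposited values. The build GRCh38 and the tools HOMER and FastQC (0.11.5) are named per the submitters' processing notes. The aligner and peak caller are not given in the sources used here. Library totals are unknown.

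Ratios, exact intervals and ratios of ratios (conditional odds ratio intervals) were computed in Python 3.11.15 with SciPy 1.17.1 and tested on simulated data. A floor of 3 control reads applied to other peaks with 0. Named genes are the members, translation factor genes with a peak, and genes overlapping or hosted by them. Members and lists were chosen with earlier results of these data known. Spans, names and sequences are RefSeq's (GRCh38.p14). All 62 list symbols matched RefSeq. Similar control reads means 0.5 to 2 times as many, chosen after the data were seen. Alternatives covered the peak threshold, overlap, added counts, summaries and left-out genes.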

Additional observations from a re-analysis of the deposited data

How the results depend on the processing

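Adding 1 to both counts left all 13 peak ratios within their counting intervals. Of 36 alternative values for the 6 gene ratios, 29 stayed within the interval and 7 moved, mostly where the strongest peak replaced the sum. The comparison of initiation factors with EEF1G (1.25) ran from 1.08 to 1.27 with peaks of adjusted p at most 1e-10, peaks centred or mostly inside the gene, 1 added to both counts, and EIF3C with EIF3CL left out. It was 3.36 by medians, 1.01 without EIF3A and 3.52 without EIF4B. The minimum of 11 IP reads fixed the direction by medians and without EIF4B. Without the 3′ peak of EEF1G, added after the data were seen, the comparison was 0.930 and reversed. The median of the member peaks (0.174) ran from 0.160 to 0.183, the count of translation factor genes with a peak was 6 throughout, and centres in the 3′-most part numbered 5 or, with RefSeq spans, 6. No paired analysis was possible because each group had 1 library. Depth is unknown, and peaks with 11 to 16 IP reads have wide intervals.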

Other observations

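TUFM, which encodes the mitochondrial counterpart of the elongation factor eEF1A and which was picked with its value in view, had a peak with 66 IP and 80 control reads, giving a ratio of 0.825 (0.586 to 1.16). Its interval lay wholly above those of the 3 EEF1G peaks, and its control density, 24.8 reads per kb, was below each of theirs.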
